A study of Mus musculus with 3 samples.

Results

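Conventional CD4 T cells are the helper T cells of the immune system, here the T cells of mouse liver tumours that held CD4 or CD40 ligand RNA and no Foxp3 RNA. They were taken by a fixed rule on unique molecular identifiers (UMIs, 1 per captured RNA molecule). A barcode with at least 200 detected genes and at most 10% mitochondrial UMIs was kept. It was then required to hold at least 2 UMIs of Cd3d, Cd3e and Cd3g together and at least 1 of Cd4 and Cd40lg together. It was also required to hold none of Cd8a, Cd8b1, Foxp3, Cd79a, C1qa and Siglech, and at most 1 of Mki67 and Top2a together. The rule found 1447 of the 36386 kept cells, of which 8386 were T cells. These were 746 of 14257 kept cells after DU101, 416 of 11710 after DU102 and 285 of 10419 in the control. Genes used by the rule are given no result here.

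The cells came from live CD45+ leukocytes sorted from freshly dissociated liver tumours of MYC-ON mice, a C57BL6 model, at 18 weeks of age. One group had been treated with DU101, one with DU102, and one was the control, whose files are named for DMSO, a solvent. Each group was 1 droplet library (10x Genomics, 3' v3), so every difference between groups below compares libraries, has no replicate check and carries no test. The labels give no dose, no duration of treatment, no number of animals and no structure for either compound, and the promoter that drives MYC is not stated there.

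Helper T cells recognise peptides on MHC class II molecules and act mainly through CD40 ligand, costimulatory receptors and secreted cytokines. After activation they may take up helper 1, helper 2, helper 17 or follicular helper programmes, each with its own transcription factor and cytokines. Cells that recirculate through lymph nodes express Ccr7, Lef1 and Tcf7, and cells that stay in liver commonly express the chemokine receptor Cxcr6.

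The 3 libraries held 106604935, 96817875 and 91013198 UMIs after DU101, after DU102 and in the control. The median conventional CD4 T cell had 3598.5, 4037 and 4731 UMIs in the same order, so the control cells were the deepest and counting intervals cover counting error only. Barcodes shared between pairs of libraries numbered 37 to 57, of which 1 was a conventional CD4 T cell in both the DU101 and the DU102 library. Xist, the RNA of the inactive X chromosome, was found in 1 of 746 DU101 cells, 0 of 416 DU102 cells (which allows up to 0.721% of cells with a UMI) and 201 of 285 control cells. Y-linked RNA without Xist was found in 353 DU101 cells, 205 DU102 cells and 34 control cells. The control thus mixed Xist-bearing and Y-bearing cells, the treated libraries did not, and treatment and this mix cannot be told apart except against the 34 Y-bearing control cells.

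The label was checked against markers the rule did not use. Icos, an inducible costimulator of helper cells, was found in 52.4% of DU101, 37.3% of DU102 and 44.2% of control cells, against 4.39%, 2.49% and 2.68% of kept cells that were not T cells. Il7r, the receptor that maintains resting T cells, was found in 70.9%, 56.5% and 71.6%, against 11.9%, 8.76% and 12.7% outside T cells. Both markers stood far above the level of carried-over RNA in every library. The shares given here are from raw UMIs and are not matched for depth. The constant segment Trac was found in 79.9%, 80.0% and 78.9% of the cells. Icos and Il7r set the cells apart from cells that were not T cells, which the Cd3 condition of the rule already favoured. That check does not separate CD4 from other T cells, and the comparison with Cd8 T cells is given below. The label had 2 further limits. Ikzf2, a gene of regulatory T cells, was found in 26% of DU101, 27.9% of DU102 and 25.6% of control cells, against 7.09%, 5.74% and 7.97% outside T cells. Cells bearing gamma-delta, Zbtb16 or Klrb1c RNA were also among the cells chosen; 631 of 746, 372 of 416 and 225 of 285 bore none. At the edges of the rule, 28, 17 and 8 cells stood at exactly 2 Cd3 UMIs, and 39, 5 and 4 cells with 1 were otherwise alike. Cells with a single Cd4 or Cd40lg UMI numbered 342 of 746, 200 of 416 and 135 of 285, and 644, 796 and 453 cells failed the rule only for having none. Cells chosen by Cd40lg alone numbered 203, 65 and 62.

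Conventional CD4 T cells took up more of the tumour leukocytes after DU101, and to a lesser degree after DU102, than in the control. They made up 5.23% of kept cells after DU101 (exact Clopper-Pearson 95% interval 4.87 to 5.61), 3.55% after DU102 (3.22 to 3.90) and 2.74% in the control (2.43 to 3.07). The share was 1.91 times that of the control after DU101 (counting interval 1.67 to 2.20) and 1.3 times after DU102 (1.11 to 1.52). T cells as a whole also took up more of the kept cells after both compounds. They numbered 3615 of 14257 after DU101, 3038 of 11710 after DU102 and 1733 of 10419 in the control. Among T cells the order differed. The share of conventional CD4 T cells was 20.6% after DU101 (19.3 to 22), 13.7% after DU102 (12.5 to 15.0) and 16.4% in the control (14.7 to 18.3). DU101 stood at 1.25 times the control (1.09 to 1.44) and DU102 at 0.833 times (0.714 to 0.972). With a Cd4 UMI required, these ratios were 1.17 (0.997 to 1.37) and 0.898 (0.757 to 1.07), both with intervals that included 1. When every cell was first thinned to 2000 UMIs, the DU102 share among T cells was 1.03 times that of the control, with an interval of 0.850 to 1.24. Among cells that bore Y-linked RNA but lacked Xist the shares of kept cells were 5.22%, 3.31% and 1.83%, a ratio to the control of 2.86 after DU101 and 1.81 after DU102. Of the T cells among them, the ratios were 1.37 (0.963 to 2.01) and 0.823 (0.570 to 1.22). Without cells that bore gamma-delta, Zbtb16 or Klrb1c RNA, the ratios among T cells were 1.34 (1.15 to 1.57) and 0.943 (0.797 to 1.12). A share says nothing of cell numbers in the tumour, since all cells passed 1 sort.

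**Figure D1:**
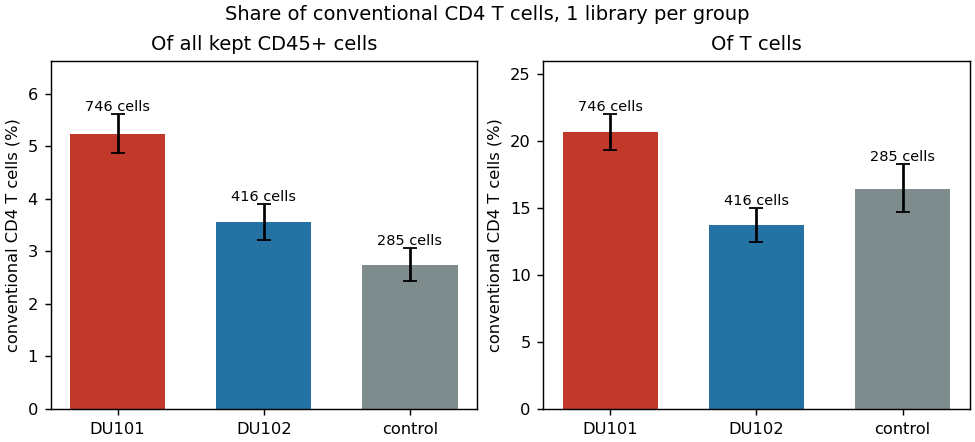
Share of conventional CD4 T cells (percent, from 0) among all kept CD45+ cells (left) and among T cells (right) for DU101, DU102 and control, 1 library each; bars carry exact 95% binomial intervals. The DU101 share is the highest in both panels, at 5.23% and 20.6%, and DU102 lies above the control on the left and below it on the right.

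Compared with Cd8 T cells, conventional CD4 T cells had more RNA of many costimulatory and helper genes and less of most cytotoxic genes. UMIs were summed per library and class, and tested over the 3 libraries with library as a term (edgeR quasi-likelihood test, Benjamini-Hochberg adjustment, 9179 genes). The Cd8 T cells had a Cd8a or Cd8b1 UMI and none of Cd4 or Cd40lg. Of the genes tested, 589 were higher and 543 lower in conventional CD4 T cells at an adjusted p under 0.05, which is 12.3% of all, 6.42% higher and 5.92% lower. Tnfrsf4 (OX40, a costimulatory receptor) had 157, 169 and 132 CPM (UMIs of the gene per 1000000 UMIs of the summed cells) in conventional CD4 T cells after DU101, after DU102 and in the control, against 6.25, 11.5 and 3.28 CPM in Cd8 T cells. Its log2 fold change over the 3 libraries was 4.26 ± 0.18 (SE, edgeR adjusted p = 3.5e-10). Maf, a transcription factor of several helper programmes, was higher by 2.78 ± 0.09 (edgeR adjusted p = 1.9e-11), and Icos by 2.38 ± 0.12 (edgeR adjusted p = 3.3e-09). The paired membrane proteins Tmem176a and Tmem176b were higher by 2.50 and 2.53, and Tnfsf8 (CD30 ligand) by 2.05. Of the 12 helper 17 genes, 6 had enough counts to be tested, and all 6 were higher. Among them was Ccr6, with 17.7, 12 and 9.09 CPM in conventional CD4 T cells and 0.51, 0.153 and 0 CPM in Cd8 T cells. A gene scarce in Cd8 T cells could enter the test only through another class, so this count was partly fixed by the minimum of counts. The helper 2 list had 5 of 6 tested genes higher (9 listed), the follicular helper list 6 of 9 (12 listed) and the costimulation list 9 of 15 with 1 lower. The same limit applies to the helper 2 count. That list summed to 39.9, 37.3 and 36.1 CPM in Cd8 T cells, against 126.5, 140.6 and 162.9 CPM in conventional CD4 T cells. In the regulatory list 9 of 12 were higher and none lower, in the early activation list 10 of 22 were higher and 2 lower, and in the checkpoint list 4 of 16 were higher and 6 lower.

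Most genes of killing were lower than in Cd8 T cells. The cytotoxic list had 13 of 14 genes lower and none higher. Gzmb, a granule protease, had 48.4, 87.0 and 94.8 CPM in conventional CD4 T cells, against 301, 430 and 262 CPM in Cd8 T cells, a log2 fold change of -2.28 ± 0.16 (edgeR adjusted p = 1.1e-07). Gzma, Gzmk, the chemokine Ccl5, Ly6c2 and the granule gene Nkg7 were lower by 2.64, 2.03, 2.1, 2.07 and 1.96 on the log2 scale, and Dapl1 by 2.47. Ifng, the helper 1 cytokine, did not pass the test (log2 fold change -0.05 ± 0.16, edgeR adjusted p = 0.91), with 193, 111 and 197 CPM in conventional CD4 T cells and 211, 147 and 109 CPM in Cd8 T cells.

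Against Foxp3 T cells, the regulatory class, conventional CD4 T cells carried more RNA of many naive and central memory genes. Helper, costimulation and activation lists went both ways. Of the same 9179 genes, 456 were higher and 504 lower, 10.5% of all, 4.97% higher and 5.49% lower. Of the 14 naive and central memory genes, 9 were higher and none lower. Tcf7, the transcription factor TCF1, had 129, 260.5 and 166 CPM in conventional CD4 T cells after DU101, after DU102 and in the control, against 11.2, 31.6 and 48.9 CPM in Foxp3 T cells, a log2 fold change of 2.80 ± 0.31 (edgeR adjusted p = 1.5e-05). Cxcr6 was higher by 2.53 ± 0.19, Tnfsf8 by 2.65 ± 0.38, Xcl1 (a chemokine for cross-presenting dendritic cells) by 2.50 ± 0.25 and the survival gene Bcl2 by 2.39 ± 0.12. In the regulatory list 10 of 12 genes were lower and none higher. Ikzf2 had 170, 214 and 180 CPM in conventional CD4 T cells and 1448, 1466 and 1465 CPM in Foxp3 T cells, a log2 fold change of -2.83 ± 0.10 (edgeR adjusted p = 3.7e-11). Klrg1, Areg (a repair factor), Itgae, Tnfrsf9 and Neb were lower by 3.87, 3.41, 3.23, 3.10 and 2.97 on the log2 scale. The glycolysis list had 8 of 16 genes lower and none higher. The costimulation list had 4 higher and 6 lower of 15, and the checkpoint list 2 higher and 9 lower of 16. The helper 2 list had 1 higher and 4 lower of 6, and the follicular helper list 1 higher and 2 lower of 9. The early activation list had 8 higher and 3 lower of 22. The effector memory and residency list had 7 higher and 3 lower of 19, and the cytotoxic list 6 higher and 3 lower of 14. Without the DU101 library, 540 genes passed against Cd8 T cells and 474 against Foxp3 T cells.

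**Figure D2:**
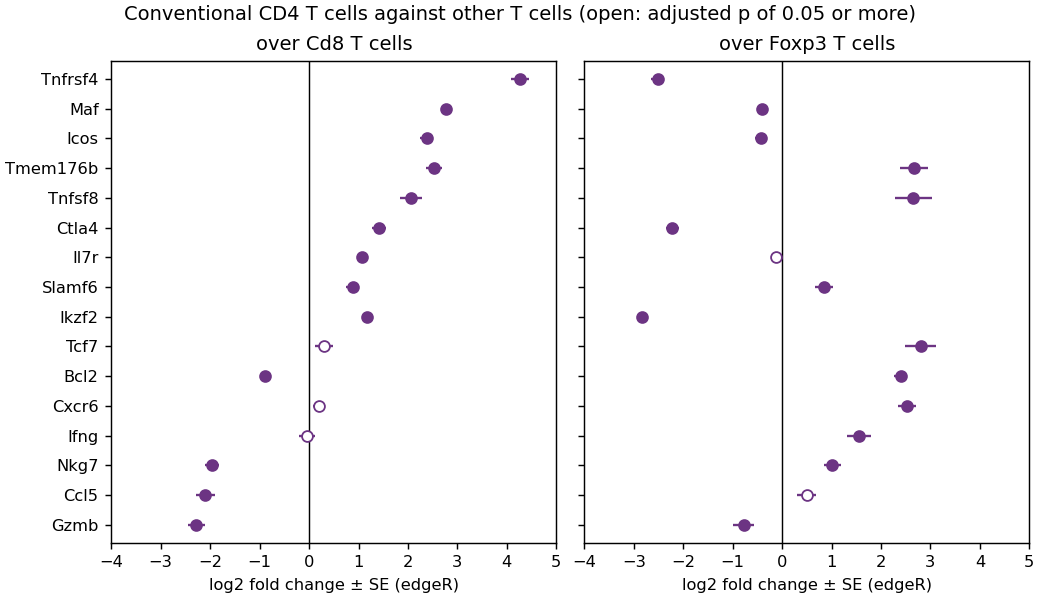
log2 fold change (edgeR, points with 1 SE, 3 libraries) of 16 genes in conventional CD4 T cells over Cd8 T cells (left) and over Foxp3 T cells (right); filled points pass an adjusted p of 0.05. Tnfrsf4, Ctla4 and Ikzf2 are higher than in Cd8 T cells and lower than in Foxp3 T cells, while Tmem176b and Tnfsf8 are higher than in both.

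For comparisons between libraries, UMIs were summed over the conventional CD4 T cells of each library. A gene was called past the fold where the ratio of CPM was at least 1.5 in either direction, the exact counting interval lay on that side of 1 and the 2 libraries held at least 30 UMIs. DU101 over control gave 445 genes higher and 345 lower of 8171, or 9.67%, 5.45% higher and 4.22% lower. DU102 over control gave 323 higher and 226 lower of 7466, or 7.35%, 4.33% higher and 3.03% lower. DU101 over DU102 gave 452 higher and 504 lower of 8349, or 11.5%, 5.41% higher and 6.04% lower. The first 2 comparisons share the control library. The counts of gene lists given below are to be set beside these shares of all genes. The median log2 ratio over all genes was 0.05, 0.05 and 0.00.

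Some genes of lymph node homing and the naive state were lower after DU101, and others were higher after DU102. Of 14 genes in the naive and central memory list, 7 were lower and none higher in DU101 over control (median log2 ratio -0.65), while 4 were higher and none lower in DU102 over control (median 0.36). In DU101 over DU102, 10 were lower and none higher (median -1.07). Tcf7 (ENSMUSG00000000782) had 129 CPM after DU101, 260.5 CPM after DU102 and 166 CPM in the control. It was 1.57 times the control after DU102 (1.34 to 1.83) and 0.777 times after DU101 (0.662 to 0.913). Lef1 had 80.1, 176 and 129 CPM and was 1.6-fold lower after DU101 than in the control (1.32 to 1.94). Bach2, a repressor of effector genes, had 11.1, 31.2 and 27.3 CPM, with DU101 alone set apart, 2.45-fold lower than the control (1.52 to 3.97). S1pr1, the receptor that lets lymphocytes leave tissue, had 136, 172 and 102 CPM and was 1.69 times the control after DU102 (1.39 to 2.06). Igfbp4 had 13.7, 68.9 and 48.0 CPM, and Nsg2 17.3, 54.2 and 26.6 CPM, both lowest after DU101. Tcf7 and Lef1 had 18.0 CPM or less in kept cells that were not T cells. Il7r had 648, 444 and 624 CPM, and was 0.711 times the control after DU102 (0.647 to 0.782), short of the fold. Bcl2 had 188, 295 and 322 CPM and was 1.72-fold lower after DU101 (1.52 to 1.94).

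Set against the 201 control cells with Xist alone, the median of the list was -0.23 after DU101 and 0.78 after DU102; against the 34 control cells that bore Y-linked RNA but no Xist the medians were -1.31 and 0.09. Against the Xist-bearing cells DU101 had 2 genes higher and 2 lower of 14, and against the Y-bearing cells 1 higher and 7 lower of 13. The DU102 median was below that of all genes (0.17) against the Y-bearing cells. The list also depended on which cells were compared, in a split by Cxcr6 chosen after seeing the data. Cells with a Cxcr6 UMI numbered 380 of 746 after DU101, 133 of 416 after DU102 and 96 of 285 in the control. Among cells with Cxcr6 the median in DU101 over control was 0.33, with 3 higher and 1 lower of 8, the other direction. Among cells without it the median was -0.52, with none higher and 7 lower of 14. In Cd8 T cells of the same libraries it was -0.55 after DU101 and -0.29 after DU102, and in Foxp3 T cells -0.67 and -0.39.

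Cxcr6 and a few other tissue and effector genes were higher after DU101. In the effector memory and residency list, 4 of 19 genes were higher and none lower in DU101 over control (median 0.27), while DU102 over control had 1 higher and 2 lower (median -0.19). Of all genes, 9.67% and 7.35% were past the fold in these comparisons. Against the control cells with Xist, 2 of 19 were higher after DU101 (median 0.15). Cxcr6 (ENSMUSG00000048521) had 335 CPM after DU101, 151 CPM after DU102 and 127 CPM in the control. The DU101 library stood alone, 2.63 times the control (2.26 to 3.08), and DU102 was 1.19 times the control (0.985 to 1.43). By thinned UMIs, Cxcr6 was found in 39.0% of DU101, 21.2% of DU102 and 20.9% of control cells, against 3.25%, 1.55% and 1.6% of cells that were not T cells. Bhlhe40, a transcription factor of cytokine-producing helper cells, had 240.3, 153 and 126 CPM, 1.91 times the control after DU101 (1.63 to 2.25). Itgb1, an integrin chain, had 525, 501 and 330.4 CPM and was past the fold after both compounds. Cd69, which retains cells in tissue, had 413, 264 and 320.0 CPM and Cd44, an adhesion receptor of antigen-experienced cells, 188, 147 and 171 CPM; neither was past the fold against the control.

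Helper 1 genes went both ways after DU101, and none passed the fold upwards after DU102. Of 14 measured in DU101 over control, 1 was higher and 2 lower (median 0.09), where 9.67% of all genes were past the fold. Of 13 in DU102 over control none was higher and 2 were lower (median -0.14), where 7.35% of all genes were. In DU101 over DU102, 4 were higher and 1 lower of 14 (median 0.31), where 11.5% of all genes were. Ifng had 193 CPM after DU101, 111 CPM after DU102 and 197 CPM in the control, 1.77-fold lower after DU102 (1.48 to 2.13). This direction did not hold everywhere: the log2 ratio of Ifng in DU102 over control was 0.13 after thinning to 2000 UMIs and 0.07 without cells that bore gamma-delta, Zbtb16 or Klrb1c RNA. The master regulator Tbx21 had 33.0, 25.7 and 26.6 CPM and the chemokine receptor Cxcr3 107, 118 and 113 CPM, neither past the fold. Il2rb, an interleukin 2 and 15 receptor chain, had 199, 254 and 342 CPM and was 1.72-fold lower after DU101 (1.53 to 1.93). Tnf had 67.7, 37.8 and 47.4 CPM, near its level outside T cells (54.1, 41.1 and 62.8 CPM). Il2 had 15.0, 13.7 and 20.8 CPM. The helper 2 regulator Gata3 had 80.1, 90.8 and 92.2 CPM, and Il4 11.1, 7.11 and 16.9 CPM, 2.37-fold lower after DU102.

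Cells with Il17a UMIs were more frequent after DU101 than in the other libraries. Il17a (ENSMUSG00000025929), the cytokine that defines helper 17 cells, was found in 31 of 746 DU101 cells (4.16%, exact interval 2.84 to 5.85), 2 of 416 DU102 cells (0.481%, 0.0583 to 1.73) and 1 of 285 control cells (0.351%, 0.00888 to 1.94). Outside T cells it was found in 0.169%, 0.0461% and 0.104% of kept cells. The DU101 interval lay far above that level, the lower end of the DU102 interval just above it, and the control interval included it. The DU101 cells held 203 Il17a UMIs, at most 18 in 1 cell. The DU102 cells held 54, of which 53 were in 1 cell, so the summed level of 29.5 CPM after DU102 rests on that cell. The control held 1 UMI, which makes the ratio of 66.4 CPM after DU101 to 0.649 CPM in the control uncertain, 102 times with a counting interval of 18.1 to 4058. Among the 31 cells, Cxcr6 was found in 29 (93.5%), against 49.1% of the DU101 cells without Il17a. Icos was found in 26, Trac in 29 and Ifng in 4 of the 31, against 51.05%, 79.3% and 27.8% of the cells without Il17a. Cells with and without Il17a were not matched for depth, and the part of depth was not tested. Gamma-delta constant genes were found in 3 of the 31 and Zbtb16 or Klrb1c in 0, which allows up to 9.68% of cells with such a UMI and does not limit the share that express these genes.

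Of the 12 genes of the helper 17 list, 8 were measured in DU101 over control, with 6 higher and none lower (median 0.92). In DU102 over control, 6 were measured and 1 was higher (median 0.16). Between the treatments, 5 of 10 were higher in DU101 over DU102 (median 0.97). Which genes were measured depended on the UMIs of the libraries compared, so these counts and medians rest on different sets of genes. A gene with many UMIs in 1 library, such as Il17a after DU101, could be measured through that library alone. Il17a is thus no separate result here. Ccr6, a chemokine receptor of helper 17 cells, had 17.7, 12 and 9.09 CPM, 1.94 times the control after DU101 (1.06 to 3.79). Tmem176b had 181, 79.3 and 98.7 CPM, and Maf 556, 468 and 321 CPM. The list depended on which control cells were used. Against the 201 control cells with Xist its median after DU101 was 1.10, and against the 34 cells with Y-linked RNA it was 0.16, the median of all genes, with Tmem176b at -0.09, Tmem176a at -0.08 and 2 of 8 genes higher. Among cells with Cxcr6 the median after DU101 was 0.99 (8 genes), and among cells without it -0.12 (4 genes). Thinning to 2000 UMIs turned Ccr6 to -0.12. In Cd8 T cells the list stood at 0.24 after DU101 and in Foxp3 T cells at 0.10, with 4 genes measured in each.

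Follicular helper genes were higher after DU102. Of 7 genes measured in DU102 over control, 6 were higher and none lower (median 0.74), while DU101 over control had 1 higher and 1 lower of 8 (median -0.14), and DU101 over DU102 had 7 of 8 lower (median -0.78). Slamf6 (ENSMUSG00000015314), a self-binding receptor of stem-like and follicular helper cells, had 117 CPM after DU101, 205 CPM after DU102 and 108 CPM in the control. Only the DU102 library was set apart, 1.9 times the control (1.58 to 2.30). Its adaptor Sh2d1a (SAP) had 87.6, 143 and 85.7 CPM, 1.67 times the control after DU102 (1.35 to 2.07). Pdcd1 (PD-1) had 48.4, 87.5 and 53.9 CPM, 1.63 times the control after DU102 (1.24 to 2.15). Btla, an inhibitory receptor, had 11.4, 46.5 and 26 CPM, higher after DU102 and 2.27-fold lower after DU101 (1.41 to 3.68). Cd200, an inhibitory ligand, had 28.4, 43.8 and 16.9 CPM and was higher after both. The defining members of the programme were sparse. Bcl6 had 6.54, 8.76 and 7.14 CPM, below its level outside T cells (17, 18.2 and 18.5 CPM), and Il21 held 3.92, 4.38 and 0.649 CPM, under 30 UMIs in each pair.

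The median of the list after DU102 was 0.82 against the control cells with Xist and 0.57 against those with Y-linked RNA. In Cd8 T cells it was 0.56 after DU102 and in Foxp3 T cells 0.03. Slamf6 cells were more often Tcf7 cells in each library: 97 of 204 after DU101, 106 of 177 after DU102 and 52 of 89 in the control, against 26%, 41.4% and 41.8% of cells without Slamf6. The cells were not matched for depth here, and the part of depth was not tested.

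**Figure D3:**
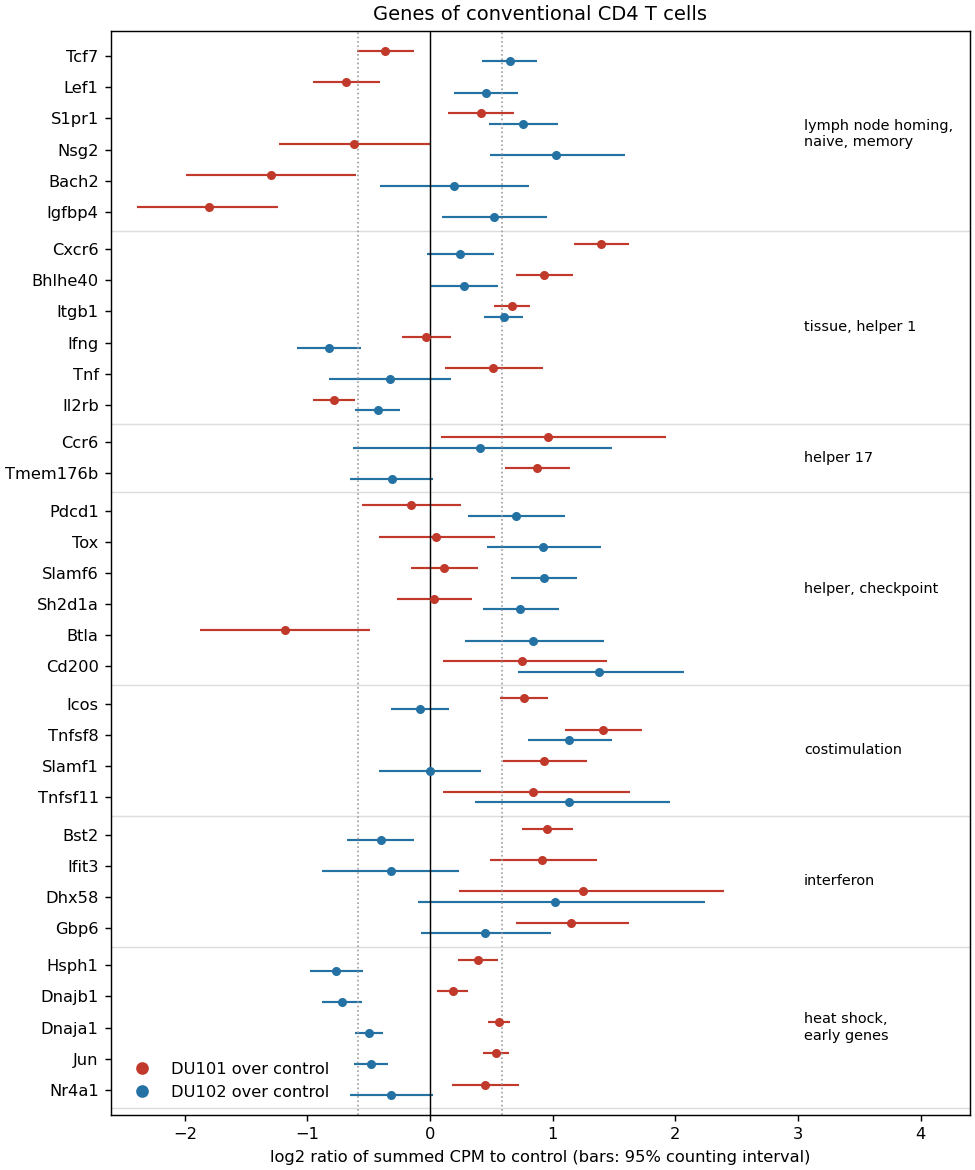
log2 ratio of summed CPM in conventional CD4 T cells, DU101 over control (red) and DU102 over control (blue), with 95% counting intervals and dotted lines at 1.5-fold; 1 library per group, no test. Tcf7 and Lef1 lie left after DU101 and right after DU102, Cxcr6 and Icos lie right after DU101, and Pdcd1, Tox and Slamf6 lie right after DU102.

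Among checkpoint and costimulatory genes the calls differed by gene. In the checkpoint list, DU102 over control had 4 of 13 higher and none lower, where 7.35% of all genes were past the fold. DU101 over control had 1 higher and 1 lower of 15, where 9.67% of all genes were. Tox, a factor of chronically stimulated T cells, had 38.9, 71.1 and 37.6 CPM, 1.89 times the control after DU102 (1.38 to 2.62). Ctla4 had 155, 113 and 132 CPM, and Lag3 8.83, 14.8 and 9.74 CPM, with no call in either comparison. Tigit had 7.52, 5.47 and 3.89 CPM, too few UMIs to be measured. In the costimulation list, 4 of 15 were higher and none lower in DU101 over control, and 2 of 15 in DU102 over control. Icos had 306 CPM after DU101, 170.2 CPM after DU102 and 180.4 CPM in the control, 1.70 times the control after DU101 (1.48 to 1.95). Tnfsf8 had 176, 146 and 66.2 CPM and was above the control after both compounds, 2.65 times after DU101 (2.14 to 3.31) and 2.20 times after DU102 (1.74 to 2.79). By raw UMIs it was found in 26.1%, 26.9% and 13% of the cells. Slamf1 had 114, 59.6 and 59.7 CPM, with DU101 alone set apart, and Tnfsf11 (RANK ligand) 23.2, 28.5 and 13 CPM.

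Type I interferon genes were higher after DU101, and 1 passed the fold after DU102. Of 43 genes measured in DU101 over control, 13 were higher and 1 lower (median 0.47), against 1 of 40 higher in DU102 over control (median 0.02), and in DU101 over DU102 16 were higher and 2 lower of 43. Monocyte and dendritic cell genes moved with them. In DU101 over control 5 of 9 of that list were higher and none lower (median 0.60), and its summed level was 1888, 1143 and 1321 CPM, against 8867, 8275 and 7121 CPM outside T cells. The part of such RNA in the interferon genes was not tested. Bst2 (tetherin, which holds budding virus at the cell surface) had 298 CPM after DU101, 117 CPM after DU102 and 154 CPM in the control, 1.94 times the control after DU101 (1.68 to 2.25). Its level outside T cells was higher, 421, 263 and 324 CPM. Ifit3, an antiviral effector, had 70.9, 30.1 and 37.6 CPM, 1.88 times the control after DU101 (1.40 to 2.56), against 32.4, 18.7 and 25.3 CPM outside T cells. Ifit3 has a near-identical neighbour, Ifit3b, so its counts are uncertain. Dhx58, an RNA sensor, had 15.4, 13.1 and 6.49 CPM, and Oasl1 9.15, 2.19 and 1.95 CPM with 14 of its 28 DU101 UMIs in 1 cell. The interferon gamma list had 2 higher and 1 lower of 24 after DU101, where 9.67% of all genes were past the fold. After DU102 it had none past the fold of 23, where 7.35% of all genes were. Gbp6, a GTPase of that list, had 71.9, 44.3 and 32.5 CPM.

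Against the 34 control cells with Y-linked RNA the type I median after DU101 was 0.32, where that of all genes was 0.16, and 6 of 40 genes were higher and 1 lower. After DU102 it was -0.25, where that of all genes was 0.17, with 1 higher and 7 lower of 35. In Cd8 T cells of the same libraries the median was 0.64 after DU101 and 0.09 after DU102, and in Foxp3 T cells 0.75 and -0.10. A median above that of all genes after DU101 was thus seen in all 3 classes.

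Promoters are shown for 3 of the genes higher after DU101, because interferon genes are known for a shared element, the interferon-stimulated response element. The letters GAAA, any 2 bases and GAAA again were searched on both strands, allowing overlap, in the RefSeq promoters (GRCm38.p6, 250 bases before to 50 after the start). They were found in 8 of the 11 genes with a promoter in that table among the 13 higher after DU101, in 12 of the 24 others of the list and in 3.99% of all 27025 genes. A match is a description of letters and not of binding. The 250 bases before the start are printed 5′ to 3′ for the 3 genes with at least 2 matches, with matches in capitals. They lie at chr8:71537473-71537722 on the minus strand (Bst2), chr19:34583279-34583528 on the plus strand (Ifit3) and chr4:156200819-156201068 on the minus strand (Isg15, a ubiquitin-like modifier).
Bst2: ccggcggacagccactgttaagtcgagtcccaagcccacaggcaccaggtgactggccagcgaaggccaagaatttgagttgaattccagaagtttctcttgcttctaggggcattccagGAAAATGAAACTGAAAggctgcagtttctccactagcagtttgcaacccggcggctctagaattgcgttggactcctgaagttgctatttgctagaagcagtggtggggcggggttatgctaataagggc
Ifit3: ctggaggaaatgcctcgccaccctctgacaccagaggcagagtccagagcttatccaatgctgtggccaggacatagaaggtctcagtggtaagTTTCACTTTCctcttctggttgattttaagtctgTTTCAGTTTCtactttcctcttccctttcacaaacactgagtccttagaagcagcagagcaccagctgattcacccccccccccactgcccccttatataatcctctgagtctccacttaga
Isg15: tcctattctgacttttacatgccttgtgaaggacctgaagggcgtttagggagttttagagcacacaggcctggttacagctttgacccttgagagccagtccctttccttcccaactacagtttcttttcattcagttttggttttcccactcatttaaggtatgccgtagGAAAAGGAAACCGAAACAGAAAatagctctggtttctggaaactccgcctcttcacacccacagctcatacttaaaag

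Many heat shock genes were higher after DU101 than after DU102. In DU101 over DU102, 9 of 14 heat shock genes were higher and none lower (median 0.79), and 8 of 21 early activation genes were higher and none lower. Against the control, DU101 had 1 of 14 heat shock genes higher (median 0.36) and DU102 had 2 of 13 lower (median -0.47). Of all genes, 5.45% were higher after DU101 and 3.03% lower after DU102. The heat shock values depended on the control cells. Against the Y-bearing cells DU101 had 7 of 14 higher (median 0.99) and DU102 none higher and 1 lower of 11 (median 0.17, as for all genes). Against the Xist-bearing cells DU101 had 1 of 14 higher (median 0.29) and DU102 had 7 of 13 lower (median -0.59). Hsph1, a chaperone, had 367, 165 and 279.7 CPM, 1.70-fold lower after DU102 than in the control (1.46 to 1.97). Dnajb1, a co-chaperone, had 542, 289 and 476 CPM. The transcription factor Jun had 890.2, 438 and 613 CPM, and Nr4a1, a reporter of T cell receptor signalling, 134, 78.8 and 98.0 CPM, neither past the fold against the control. In Cd8 T cells the heat shock median was 0.43 after DU101 and -0.45 after DU102. The 18 genes of T cell receptor signalling held none past the fold in any of the 3 comparisons. Hspb1 had 29.1, 4.38 and 3.89 CPM, with 29 of its 89 DU101 UMIs in 1 cell.

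Trat1 and some feedback genes were lower after both compounds, and Lars2 after DU101. Trat1, which stabilises the T cell receptor complex, had 37.9, 61.3 and 101 CPM, 2.67-fold lower after DU101 (2.09 to 3.43) and 1.65-fold lower after DU102 (1.29 to 2.13). Against the 34 Y-bearing control cells its log2 ratio after DU102 was 0.67, the other direction. Serpina3g, a protease inhibitor, had 74.5, 81.0 and 159 CPM. In the glucocorticoid and PI3K feedback list, 4 of 13 were lower and 1 higher after DU101 and 3 of 13 lower after DU102. Fkbp5 had 56.2, 45.4 and 93.5 CPM, lower after both but close to its level outside T cells (46.6, 40.2 and 99.5 CPM). Zbtb16, the factor of innate-like T cells, had 9.48, 3.83 and 24.0 CPM. Lars2, a mitochondrial transfer RNA synthetase, had 641, 1874 and 2355 CPM, 3.67-fold lower after DU101 (3.48 to 3.88), and outside T cells it had 553, 1062 and 1475 CPM. Gzmk, a protease of memory T cells, had 26.2, 64.6 and 20.1 CPM, 3.21 times the control after DU102 (2.15 to 4.93).

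**Figure D4:**
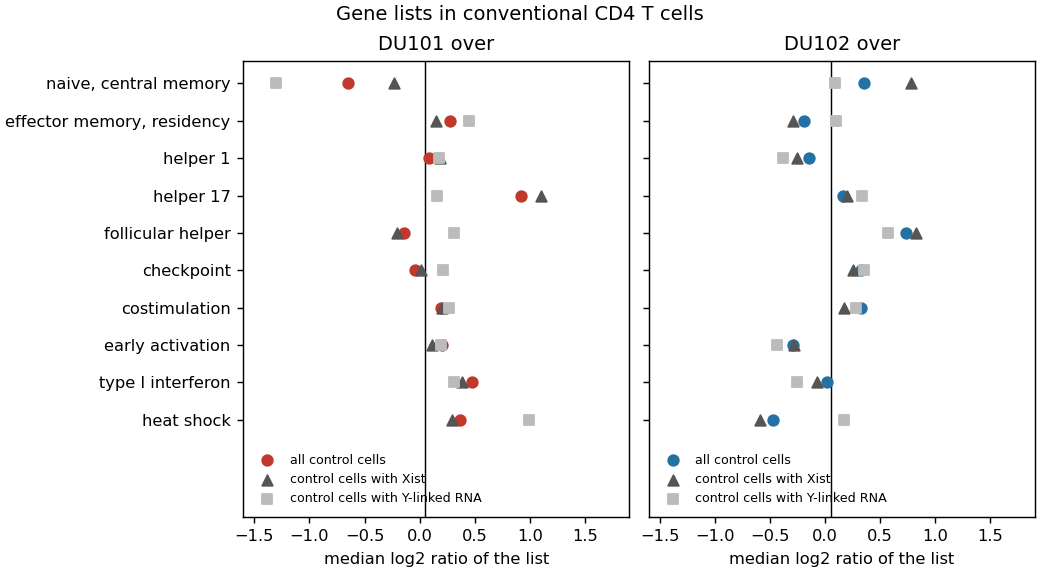
Median log2 ratio of 10 gene lists in conventional CD4 T cells, DU101 (left) and DU102 (right) over all control cells (circles), over control cells with Xist (triangles) and over control cells bearing Y-linked RNA without Xist (squares); the vertical line is the median of all genes. The helper 17 list after DU101 stands at 0.92, 1.10 and 0.16, and the follicular helper list after DU102 at 0.74, 0.82 and 0.57.

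Many genes at the extremes of the rankings had a higher level outside T cells. Of the 8 genes most above the control after DU101, 6 had a higher level outside T cells and 5 had at least 25% of their UMIs in 1 cell. These were Cxcl9, Il17a, Jchain, Loxl2, Mzb1, Camp, Elane and Prtn3. All 170 Loxl2 UMIs of the DU101 library were in 1 cell, as were 167 of 287 of Cxcl9, a chemokine of myeloid cells. The 8 genes most above the control after DU102 were all higher outside T cells and all belong to neutrophils or their precursors (Camp, Elane, Prtn3, Ltf, Ngp, Mpo, Lcn2 and S100a8). S100a8 had 1338, 4428 and 1710.3 CPM in conventional CD4 T cells and 25243, 30495 and 7039.9 CPM outside T cells. The 12 neutrophil genes summed to 3415, 11580 and 4467 CPM in conventional CD4 T cells, and to 69100, 85220 and 20630 CPM outside T cells. All 8 genes furthest below the control after DU102 were higher outside T cells too (Spp1, Cxcl2, H2-Eb1, H2-Aa, Wfdc17, Napsa, Cd74 and H2-Ab1), and so were 5 of the 8 after DU101 (Lars2, Retnlg, Spp1, G0s2, Trat1, Cxcl2, Gzma and Serpina3g). The macrophage list summed to 498, 278 and 471 CPM in conventional CD4 T cells, with C1qa at 0 by the rule. The part of carried-over RNA and of barcodes holding 2 cells in these genes was not tested. With barcodes called as doublets by Scrublet (2.28%, 0.962% and 2.11% of the cells) removed, the log2 ratio of Cxcl2 in DU101 over control was 0.84.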

How the data were processed

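The deposited files hold raw UMI counts per gene and barcode, with no normalization. The software version is unsettled: it is 6.0.0 of Cell Ranger in the matrix headers and 2.1.1 in the submitters' processing notes, which give mm10 as the build. The 3 libraries hold 32285 features each and were not pooled. From these counts, cells were kept and gated as described above, and UMIs were summed per library and class. Ratios between libraries carry exact conditional binomial 95% intervals that cover counting error only. Genes listed at 0 in a library entered list medians at a floor of 3 counts. Class differences were tested with edgeR 4.0.16 over 9 sums (TMM, filterByExpr, library as a term), after a check on simulated data, with DESeq2 1.42.0 as an alternative. Apart from the genes changed on purpose, the simulated counts had 1 mean per gene over the 9 sums. They had 1 common dispersion and no differences between libraries, so the check does not give the error rate in these data. Class sums of a library come from separate barcodes of that library, and the library term takes up differences between libraries. Those p-values thus measure how the class difference varied over the 3 libraries, which are 3 groups without replicates. The shares of cells with Cxcr6 per library were compared after thinning each cell to 2000 UMIs. This left out 38, 10 and 3 shallower cells after DU101, after DU102 and in the control. Other shares of cells holding a given gene are from raw UMIs and are not matched for depth. Doublets were called with Scrublet (scanpy 1.11.5; 3.14%, 2.06% and 2.53% of cells) and kept, with their removal as an alternative. Named genes were the 8 highest and 8 lowest against the control and 5 on each side between treatments. Those had at least 50 CPM in the higher library and were ranked by the end of the ratio interval nearest 1. Also named were 6 on each side per class test, by log2 fold change with at least 100 CPM in the higher class. Up to 4 past the fold per list, by absolute log2 ratio, and a fixed set were added. The members and the 35 gene lists were chosen with earlier results of these data known. Other alternatives changed the mitochondrial limit, the gene minimum, the Cd4 and Cd40lg threshold, the UMI minimum and the fold. Some genes and the results that need them are not reported here.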

Additional observations from a re-analysis of the deposited data

How the results depend on the processing

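No paired analysis was possible because each group is 1 library and the libraries share only the number 1. Depth limits genes under 30 UMIs. Of the log2 ratios of named genes, 3472 values lay within the counting interval of the main value and 544 moved outside it. A further 28, of genes called past the fold, changed sign. Values of genes not called were not checked for a change of sign. The cause of each change below was not tested. The share of kept cells over control was 2.26 (DU101) and 1.52 (DU102) after thinning to 2000 UMIs, and 2.86 and 1.81 among cells bearing Y-linked RNA without Xist. These shares among Y-bearing cells, and the comparisons with Xist-bearing control cells, by Cxcr6, without innate-like cells and without each gene's highest cell, were chosen after seeing the data. The DU102 share of T cells became 1.03 after thinning. The count of genes past the fold, DU101 over control, was 440 thinned, 399 with at least 100 UMIs and 316 at a fold of 2. That of genes past the fold, DU102 over control, was 233, 216 and 247, and that of genes past the fold, DU101 over DU102, 601, 505 and 387. Against Cd8 T cells 466 genes passed with no library term, 665 by DESeq2, and 540 to 805 without 1 library. Against Foxp3 T cells 581 passed with no library term, 455 after thinning, and 474 to 685 without 1 library.

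These log2 ratios, all at least 1.5-fold in either direction in the main comparison, changed sign. After thinning, DU101 over control gave Ccr6 -0.12, Xcl1 -0.24 and G0s2 0.0079. DU102 over control gave Ifng 0.13, Retnlg 1.12 and G0s2 0.27, and DU101 over DU102 gave Cxcl2 -0.90, Napsa -0.11 and a natural killer list median of -0.35. Against Y-bearing control cells, DU101 gave Tmem176a -0.084, Tmem176b -0.092, Gzma 1.48 and Cxcl2 0.99, and DU102 gave Gzma 1.36, Trat1 0.67, Cxcl2 0.080, H2-Aa 1.05, H2-Ab1 1.29 and Cd74 1.35. Without innate-like cells, DU102 over control gave Gzma 0.56 and Ifng 0.071. Without the highest cell of each gene, Gzma was 0.66 (DU101) and 0.28 (DU102) over control. With Cd4 of at least 1, Gzma was 1.63 (DU101) and 1.43 (DU102), and H2-Eb1 was -0.022 in DU101 over control. With at least 2 UMIs of Cd4 and Cd40lg, Spp1 was 2.28 in DU101 over control and H2-Ab1 -0.059 in DU101 over DU102. With doublets removed, Cxcl2 was 0.84 in DU101 over control.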
